A study of Mus musculus with 47 samples.

Results

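The 10 genes described here encode proteins that neutrophils store in their granules or carry in bulk in the cytosol: S100a8, S100a9, Camp, Ngp, Ltf, Lcn2, Elane, Mpo, Cd177 and Fcnb. They were followed by gene symbol across 12 RNA-seq libraries of mouse macrophages, 6 of bone marrow-derived macrophages (BMDMs) and 6 of the Raw264.7 macrophage line. All 10 were among the 51912 genes of the BMDM tables. The set was chosen from earlier results of these libraries, in which counts of these genes stood out, so their levels and differences are given as a description with no test.

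Neutrophils mature in the bone marrow and fill their granules in a fixed order. The azurophil granules come first and hold myeloperoxidase and serine proteases, the specific granules follow with lactoferrin and cathelicidin, and S100A8 and S100A9 fill the cytosol of mature cells. Macrophages arise from related progenitors and are not known for azurophil or specific granules. Lcn2 is an exception, because it belongs to the acute phase response that many cell types mount to LPS.

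BMDMs of the C57BL/6 strain came from WT Zmynd8 fl/fl littermates and from Zmynd8 cKO mice, in which Cre driven by the Lyz2 locus acts in myeloid cells, neutrophils included. They were not treated (NT, M0) or were exposed for 6 h to LPS, a component of bacterial membranes (M1, 100 ng/ml), or to the cytokine IL-4 (M2, 20 ng/ml). The Raw264.7 libraries were Zmynd8 KO cells, the same KO with Zmynd8 put back (the rescue) or with the D/E-A mutant, whose acidic residues in the disordered region are alanine, and p65 KO cells alone, with WT p65 or with p65 K122R. The 3 p65 libraries are labelled LPS, whereas the labels of the 3 Zmynd8 libraries give no treatment. The text of the study describes the RNA-seq of the rescue and D/E-A cells as made after LPS, and treatment of the Zmynd8 KO library is not given in the sources used here. The column used for WT p65 is headed only as WT with LPS, so unmodified cells cannot be told apart from rescued cells there. Every condition had 1 library, and for BMDMs 3 biological replicates were mixed into it. No difference between conditions therefore has a replicate check, and the 95% limits given below cover counting error only. They are Clopper-Pearson limits on the reads of 2 libraries, or of 2 genes in 1 library, and exact Poisson limits for TPM.

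BMDM libraries held from 22597408 to 28386612 counts and Raw264.7 libraries from 15127110 to 21042628 reads. Zmynd8 itself was at 81.5, 86.8 and 151 counts scaled to library size (CPM) in the BMDM libraries labelled Zmynd8 cKO (NT, LPS, IL-4) and at 87.1, 79.0 and 128 CPM in the WT libraries. These counts cover the whole gene, whereas only exons 6 and 7 are flanked by loxP sites, so they do not check the deletion, and those libraries are called by their label. In Raw264.7 cells the deposited Zmynd8 value was 116 in Zmynd8 KO and 506 in the rescue, and the KO value is the 1 value of that library which is not a whole number of reads. Rela, which encodes p65, was at 50.6 CPM in p65 KO, 102 CPM with WT p65 and 351 CPM with K122R. The 3 Zmynd8 libraries and the 3 p65 libraries carry the same cell line label. Yet Xist, the RNA of the inactive X chromosome, was at 338 to 460 CPM in the Zmynd8 libraries and at 0 to 0.198 CPM in the p65 libraries. In the WT BMDM libraries Xist was at 740 CPM in NT, 246 CPM after LPS and 1108 CPM after IL-4. In those labelled Zmynd8 cKO it was at 323, 429 and 1057 CPM. What sets the BMDM libraries apart in Xist was not tested.

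The genes lie on 6 chromosomes of the mouse genome (mm10, positions from the deposited Raw264.7 tables), and all are protein-coding. S100a8 (chr3:90669071-90670034, plus strand) and S100a9 (chr3:90692630-90695721, minus strand) are 22.6 kb apart. Camp (chr9:109847377-109849456, minus), Ngp (chr9:110419808-110423012, plus) and Ltf (chr9:111019292-111042766, plus) lie in a row, with 570 kb between the first pair and 596 kb between the second. Lcn2 (chr2:32384637-32387739, minus) and Fcnb (chr2:28076479-28084903, minus) share chromosome 2 but are 4.30 Mb apart. Cd177 (chr7:24743983-24760334, minus), Elane (chr10:79886312-79888216, plus) and Mpo (chr11:87793784-87804412, plus) are each alone on their chromosome.

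Since most of these genes were high in the same libraries, their promoters were searched for letters bound by 3 factors of granulocyte and macrophage genes, in windows of 300 bases from RefSeq (250 before the start and 50 after it, GRCm38.p6). All 10 genes had a window. The C/EBP letters TTGCNNAA, read on both strands, were in 5 of the 10 windows (Fcnb, Lcn2, S100a9, Ngp, Ltf) and in 10.8% of all 32851 windows. The PU.1 letters GAGGAA were in 6 of 10 windows and 28.3% of all windows, and those of the kappaB motif in 5 of 10 and 50.8%. The letters of the 3 motifs can overlap and were counted separately. A match is a run of letters and not a bound site. The 250 bases before the start are shown, 5′ to 3′ on the strand of the gene, for the S100a8 and S100a9 neighbours, for Ngp and Ltf of chromosome 9 and for Lcn2, the gene that parts from the others after LPS. Capitals mark the C/EBP letters.
S100a8, chr3:90668821-90669070, plus strand: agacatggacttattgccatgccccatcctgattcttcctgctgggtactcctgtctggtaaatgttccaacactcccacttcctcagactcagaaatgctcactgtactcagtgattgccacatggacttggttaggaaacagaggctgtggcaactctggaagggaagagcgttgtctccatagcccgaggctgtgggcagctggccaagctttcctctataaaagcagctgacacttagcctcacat
S100a9, chr3:90695722-90695971, minus strand: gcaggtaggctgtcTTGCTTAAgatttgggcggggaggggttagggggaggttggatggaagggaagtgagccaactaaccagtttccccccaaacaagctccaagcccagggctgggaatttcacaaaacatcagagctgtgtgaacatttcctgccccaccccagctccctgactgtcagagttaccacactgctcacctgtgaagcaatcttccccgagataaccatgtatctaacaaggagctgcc
Ngp, chr9:110419558-110419807, plus strand: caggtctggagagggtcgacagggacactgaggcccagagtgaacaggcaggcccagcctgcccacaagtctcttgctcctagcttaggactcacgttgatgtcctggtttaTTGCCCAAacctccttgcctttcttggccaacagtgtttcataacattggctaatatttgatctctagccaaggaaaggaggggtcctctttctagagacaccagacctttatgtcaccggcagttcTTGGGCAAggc
Ltf, chr9:111019042-111019291, plus strand: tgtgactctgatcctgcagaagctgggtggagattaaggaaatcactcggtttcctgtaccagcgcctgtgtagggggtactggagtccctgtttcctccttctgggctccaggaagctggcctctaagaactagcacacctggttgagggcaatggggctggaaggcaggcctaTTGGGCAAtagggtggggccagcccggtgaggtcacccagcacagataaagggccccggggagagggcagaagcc
Lcn2, chr2:32387740-32387989, minus strand: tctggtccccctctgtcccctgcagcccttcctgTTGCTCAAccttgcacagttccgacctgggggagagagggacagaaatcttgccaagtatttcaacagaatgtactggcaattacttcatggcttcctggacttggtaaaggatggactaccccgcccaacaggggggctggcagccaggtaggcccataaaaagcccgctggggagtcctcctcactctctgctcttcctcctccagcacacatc
S100a8 held no C/EBP letters in its window, although its neighbour held 1 run and Ngp held 2.

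Lcn2 apart, the genes were at 2.81 CPM or less in the NT, LPS and p65 libraries. They ran from 1.30 CPM (Fcnb) to 185 CPM (S100a9) after IL-4 and from 15.8 CPM (Fcnb) to 3497 CPM (S100a9) in the Zmynd8 lines. Summed over the 10 genes, NT libraries held 3.17 CPM in WT and 2.88 CPM in the library labelled Zmynd8 cKO. The IL-4 libraries held 422 and 568 CPM in the same order. The rescue line held 13725 CPM, the Zmynd8 KO line 9624 CPM and the D/E-A line 6303 CPM, which is 1.37%, 0.962% and 0.630% of all reads. The p65 libraries held 12.3 CPM with WT p65, 14.1 CPM with K122R and 7.14 CPM in p65 KO, nearly all of it Lcn2. The LPS-treated BMDMs held 165 and 121 CPM, and without Lcn2 only 4.26 and 2.56 CPM. BMDM and Raw264.7 reads were counted in different ways, so a level set across the 2 kinds of cells is approximate.

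**Figure D1:**
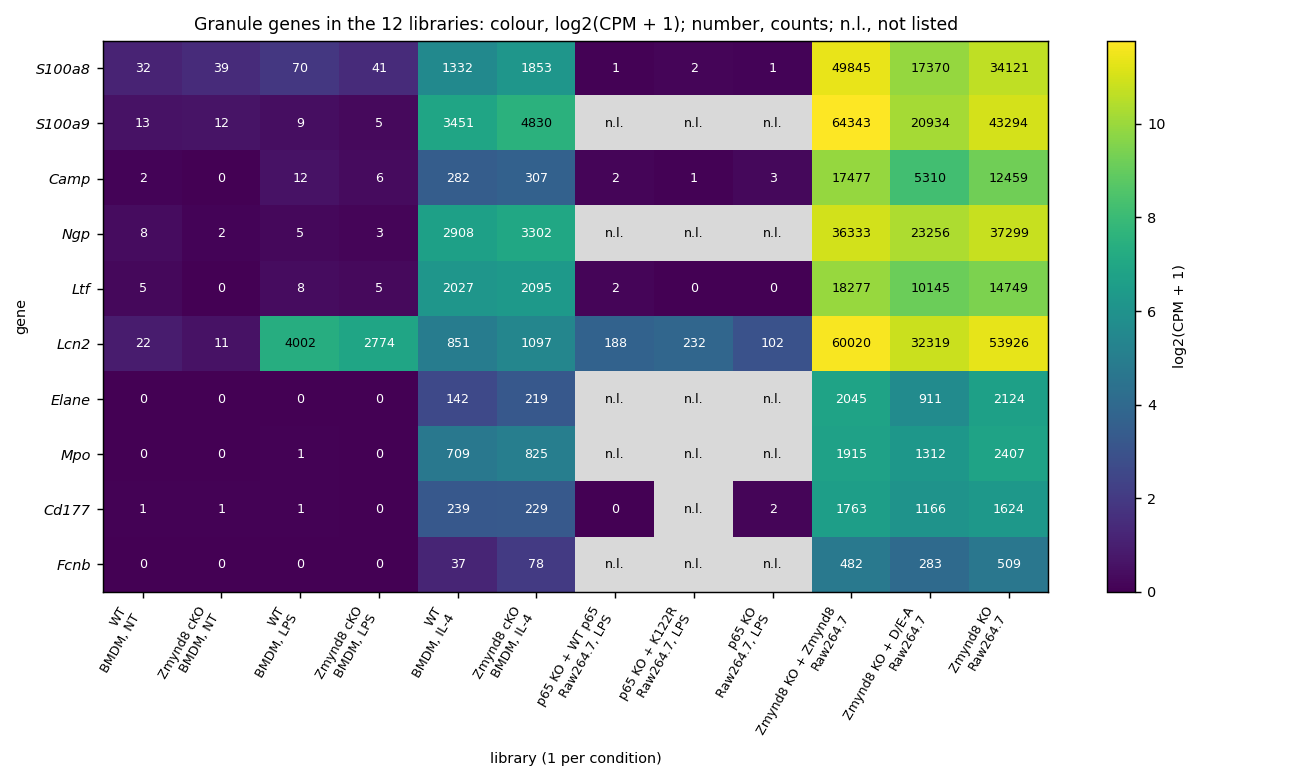
Counts of the 10 genes (rows) in the 12 libraries (columns): the colour is log2(CPM + 1), the number in each cell is the count, and grey cells marked n.l. are genes not listed in that table. Each gene other than Lcn2 is higher in the IL-4 libraries and the 3 Zmynd8 lines than in any other library that lists it, with Fcnb lowest at 1.30 CPM in WT after IL-4, whereas Lcn2 is higher after LPS (160.7 CPM in WT) than after IL-4.

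Outside the IL-4 and Zmynd8-line libraries, the highest level of any of the 9 genes other than Lcn2 was 2.81 CPM, for S100a8 in WT BMDMs after LPS (70 counts). Elane and Fcnb were at 0 counts in all 4 NT and LPS libraries, and a count of 0 allows up to 3 counts, or between 0.114 and 0.133 CPM. S100a9, Ngp, Elane, Mpo and Fcnb were not listed in the p65 tables, which list no gene at 0 in both of their libraries.

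The cytosolic pair S100a8 and S100a9, which form the calprotectin dimer, had low counts in NT BMDMs. In NT, S100a8 had 32 counts in WT and 39 in the library labelled Zmynd8 cKO. With LPS it had 70 and 41 counts in the same order, and with IL-4 1332 and 1853. S100a9 had 13 and 12 counts in NT, 9 and 5 with LPS, and 3451 and 4830 with IL-4. Both IL-4 libraries therefore stood above all 4 others for both genes, but the pair was not in a fixed proportion. S100a9 had 2.59 times the counts of S100a8 in WT after IL-4 (limits 2.43 to 2.76) and 2.61 times in the library labelled Zmynd8 cKO (2.47 to 2.75). In WT NT the ratio was 0.406 (0.196 to 0.796), and after LPS it was 0.129 (0.0565 to 0.258). In the Zmynd8 lines it was 1.29 in the rescue, 1.21 in D/E-A and 1.27 in Zmynd8 KO.

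Among the genes of the specific granules, Ltf encodes the iron-binding lactoferrin, Camp the cathelicidin peptide, Ngp a neutrophilic granule protein related to cathelicidins, and Lcn2 a lipocalin that binds bacterial siderophores. Ltf had 5 and 0 counts in NT (WT and the library labelled Zmynd8 cKO), 8 and 5 with LPS, and 2027 and 2095 with IL-4. Camp had 2 and 0, then 12 and 6, then 282 and 307 counts in the same order. Ngp had 8 and 2, then 5 and 3, then 2908 and 3302 counts. These 3 genes were thus near the floor of detection in the NT and LPS libraries of both genotypes. Lcn2 differed: it had 22 and 11 counts in NT, 4002 and 2774 with LPS, and 851 and 1097 with IL-4.

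The azurophil granule genes Mpo (myeloperoxidase) and Elane (neutrophil elastase) were absent from nearly all NT and LPS counts. Mpo had 1 count in WT after LPS and 0 in the other 3 NT and LPS libraries, against 709 and 825 after IL-4. Elane had 142 and 219 counts after IL-4. Cd177, a surface and granule glycoprotein of neutrophils, had 0 or 1 count in each NT and LPS library and 239 and 229 after IL-4. Fcnb, which encodes ficolin-B, a lectin of immature myeloid cells, had 37 and 78 counts after IL-4. Even the lowest of these IL-4 counts was above every NT and LPS count of the same gene.

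After IL-4 the levels can be ordered per transcript length with the deposited TPM, which divide by gene length. In WT the order was S100a9 at 718 TPM, S100a8 at 312, Ngp at 152, Lcn2 at 65.6, Ltf at 47.9, Camp at 28.9, Mpo at 20.3, Elane at 9.90, Cd177 at 4.93 and Fcnb at 2.04 TPM. The order was the same in the library labelled Zmynd8 cKO, from S100a9 at 1063 TPM to Fcnb at 4.79 TPM. Neighbours in the order differed beyond their counting limits in both libraries, except Cd177 (5.24 TPM, 4.58 to 5.96) and Fcnb (4.79 TPM, 3.79 to 5.98) in the library labelled Zmynd8 cKO. S100a9 was the 217th highest of all genes in WT and the 145th in the library labelled Zmynd8 cKO. The IL-4 table gives other gene lengths than the NT and LPS tables for 7 of the 10 genes (for Ltf 2743 against 233 bases), so treatments were compared on CPM, with TPM tried only as an alternative.

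For each comparison a gene was counted as higher or lower at a fold of at least 1.2, which is the fold part of the cutoff in the methods of the study without its p-value and false discovery rate, on log2(CPM + 1), over the genes whose counts averaged 10 or more in that pair. IL-4 was first set against NT. All 10 genes were higher after IL-4 in WT and in the library pair labelled Zmynd8 cKO, where 41.3% and 44.7% of all tested genes were higher. At a fold of at least 2 the 10 genes were again higher, against 10.0% and 15.0% of all genes. The genes other than S100a8, S100a9 and Lcn2 entered the test only through the IL-4 library, in which they were high, so nothing is read from these counts. The median of all tested genes was itself shifted by 0.15 (log2) in WT and 0.17 in the pair labelled Zmynd8 cKO.

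The ratios to NT rest on few NT counts. In WT the ratio of CPM was 38.4 for S100a8 (limits 27.1 to 56.4), 245 for S100a9 (143 to 461) and 35.7 for Lcn2 (23.4 to 57.3). For Ngp it was 336 (170 to 778), and for Ltf 374 (160 to 1154). With NT at 0 counts and a floor of 3 counts in that library, Mpo was at least 218-fold higher, Elane at least 43.7-fold higher and Fcnb at least 11.4-fold higher in WT. These bounds leave out the counting error of the IL-4 library, and the Clopper-Pearson lower limits were 177, 35.1 and 8.81. In the pair labelled Zmynd8 cKO, Ltf was at least 604-fold, Mpo at least 238-fold and Camp at least 88.5-fold higher after IL-4 by the same floor, with lower limits of 491, 193 and 71.5. The IL-4 table uses other gene lengths than the NT and LPS tables, and the IL-4 sample names carry S62 and S63 where the others carry S91 to S94, numbers that the labels do not explain. Treatment and the way the tables were made cannot be told apart. In bulk RNA, a change in the share of a cell type and a change in RNA per cell cannot be told apart either.

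Other neutrophil genes and markers of other cells were read in the same libraries. Of 33 other neutrophil genes, 28 had more than 3 counts in each IL-4 library, against 16 and 17 in NT, and their summed level was 717 and 972 CPM after IL-4 against 161 and 178 CPM in NT. After LPS, 20 and 18 of them had more than 3 counts and the sum was 757 and 730 CPM, so the sum was not high after IL-4 alone. Csf3r, the receptor of G-CSF, and Chil3 made up most of the IL-4 sum, Csf3r at 330 and 424 CPM. Chil3, a chitinase-like protein also induced by IL-4 in macrophages, was at 296 and 399 CPM after IL-4 and at 0.687 and 0.398 CPM in NT. Prtn3, the proteinase of azurophil granules, was at 6.09 and 7.27 CPM after IL-4 and at 0 and 0.0885 CPM in NT. Mmp8, the neutrophil collagenase, went the other way, from 99.7 and 116 CPM in NT to 8.53 and 10.2 CPM after IL-4, and it made up most of the NT sum. Ly6g, the marker used to sort mature neutrophils, was at 0.106 and 0.0765 CPM after IL-4, or 3 and 2 counts. Retnlg, expressed late in maturation, was at 0.493 and 0.842 CPM. Of these 33 genes, 19 of the 25 tested were higher and 4 lower in WT after IL-4, and 21 of 26 were higher and 3 lower in the pair labelled Zmynd8 cKO, beside the 41.3% and 44.7% of all genes that were higher and the 23.1% and 26.2% that were lower. Of the genes tested, 11 in WT and 13 in the pair labelled Zmynd8 cKO had under 10 counts in NT and entered only through the IL-4 library, so nothing is read from these counts.

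The macrophage list summed to 19810 and 16372 CPM in NT, 14629 and 10609 CPM after LPS and 21821 and 17948 CPM after IL-4, and its 12 genes, with Adgre1, Csf1r and Cd68 among them, were detected in all 6 libraries. The monocyte and myeloid progenitor list summed to 453 and 344 CPM in NT and to 234 and 371 CPM after IL-4, so it was lower after IL-4 in WT. Of its 8 genes, 5 were higher and 2 lower in WT, and 5 were higher and 3 lower in the pair labelled Zmynd8 cKO, beside the 41.3% and 44.7% of all genes that were higher and the 23.1% and 26.2% that were lower, with 2 genes in each pair under 10 counts in NT. Ly6c2, a monocyte marker, was at 13.8 and 26.7 CPM after IL-4 and at 0.191 and 0.177 CPM in NT, and Ccr2 was at 64.9 and 161 CPM against 6.37 and 15.0 CPM. Cd93, which made up most of the NT sum, was lower, at 147 and 174 CPM against 441 and 322 CPM. The eosinophil, basophil and mast cell list summed to 4.02 and 5.43 CPM after IL-4 and to 1.87 and 2.52 CPM in NT. The B cell list summed to 15.1 and 24.3 CPM after IL-4 and 5.42 and 15.3 CPM in NT. The T cell list was lower, at 5.11 and 3.98 CPM after IL-4 against 29.2 and 25.5 CPM in NT. Nearly all of it was Cd4 in these 4 libraries, and Cd3d was at 0 counts in each. Their part in the granule gene counts was not tested.

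**Figure D2:**
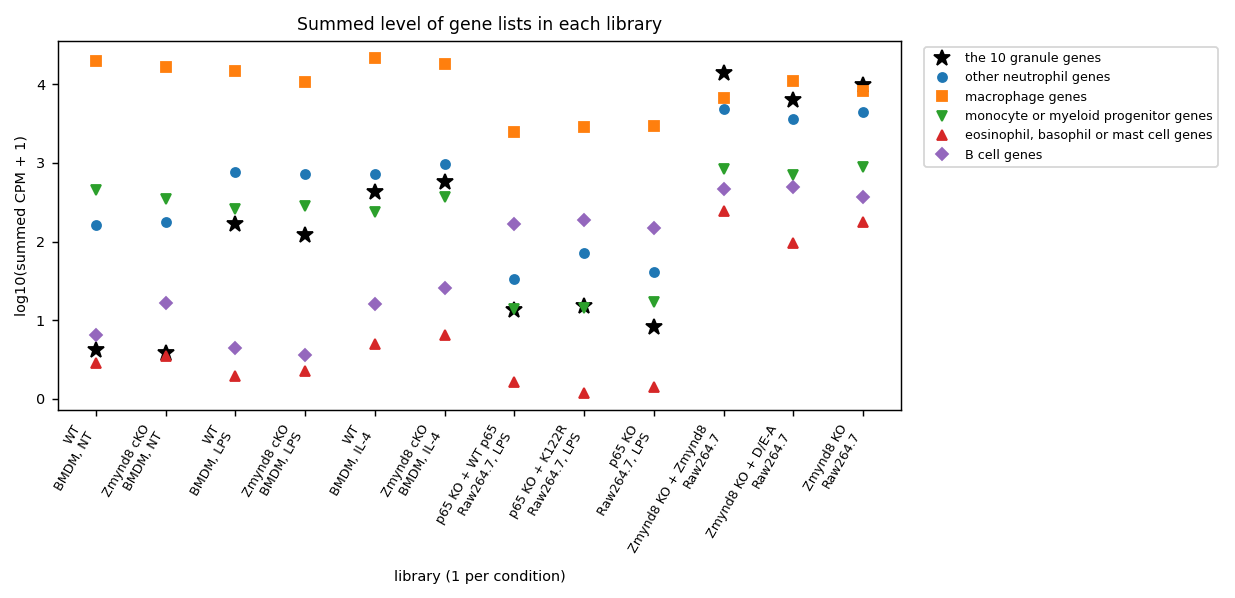
Summed level of the 10 granule genes (stars) and of 5 gene lists (other symbols) in each of the 12 libraries (horizontal axis), as log10(summed CPM + 1). The stars and the other neutrophil genes are both higher after IL-4 than in NT and higher in the Zmynd8 than in the p65 lines, whereas after LPS the other neutrophil genes sum to 757 and 730 CPM and the stars to 165 and 121 CPM. The monocyte, eosinophil and B cell lists are also highest in the Zmynd8 lines.

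LPS was set against NT in the same way, and these 2 comparisons share their NT libraries with the IL-4 comparisons. Lcn2 was the gene that stood apart, with a ratio of CPM of 191 in WT (limits 126 to 306) and 243 in the pair labelled Zmynd8 cKO (136 to 488). S100a8 was at 2.30 times its NT level in WT (1.50 to 3.62) and at 1.01 times in the pair labelled Zmynd8 cKO (0.638 to 1.61). These were the 2 genes higher of 3 tested in WT, where 21.7% of all genes were higher, while Lcn2 was the 1 gene higher of 2 tested in the pair labelled Zmynd8 cKO, where 25.0% were. S100a9 had a ratio of 0.729 in WT with limits of 0.275 to 1.84. The median of all tested genes was -0.58 (log2) in WT and -0.55 in the pair labelled Zmynd8 cKO, beside 0.78 and 0.01 for S100a8. The limits of the S100a8 ratio lay above that median in WT (0.58 to 1.85 on the log2 scale). In the pair labelled Zmynd8 cKO they included it (-0.65 to 0.69), so no difference from the median is shown there. Camp, with 2 counts in NT and 12 after LPS in WT, gave a ratio of 6.31 (1.41 to 58.1).

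The 11 acute phase genes fixed as a list beside Lcn2 were all tested and all higher by a fold of at least 2 after LPS in WT, with a median log2 difference of 3.27, where 10.5% of all tested genes were higher by that much. In the pair labelled Zmynd8 cKO, 10 were tested and 10 were higher, 8 of them by a fold of at least 2, where 13.2% of all genes were. In NT, 5 and 4 of these genes had under 10 counts and entered only through the LPS library, so nothing is read from their number. Saa3, a serum amyloid protein made by macrophages, went from 30.3 to 7641 CPM in WT and from 24.6 to 5106 CPM in the pair labelled Zmynd8 cKO. Of the other neutrophil genes, 10 of 16 tested were higher and 3 lower in WT after LPS, where 21.7% of all genes were higher and 63% lower, and 7 of 15 were higher and 3 lower in the pair labelled Zmynd8 cKO, where 25.0% and 60.5% were. In each pair 2 of the tested genes had under 10 counts in NT and 1 had under 10 after LPS. These entered only through the other library, so nothing is read from these numbers of genes. Csf3r was higher, at 493 and 415 CPM against 35.6 and 28.1 CPM in NT, and Fpr2, a formyl peptide receptor, at 93.8 and 113 CPM against 1.76 and 1.19 CPM. Mmp8 showed the opposite order, at 99.7 and 116 CPM in NT and 9.32 and 16.8 CPM after LPS.

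The genes most like S100a8, Camp and Lcn2 over the 6 BMDM libraries were picked by Pearson's r of log2(CPM + 1) among 7458 genes outside the set, as a description. For S100a8 they included AC153530.2 (r = 0.997), B230307C23Rik, St8sia1 and Tmem176a (r = 0.995), and for Camp the 5 were St8sia1 (r = 0.997), AC153530.2, Azin2, Pan2 and Gm14760 (r = 0.996). For both genes the 6 points fall into 2 IL-4 libraries and 4 others, so any gene high in both IL-4 libraries has a high r. Lcn2 followed Ptpn6, Tarm1, AA467197, Bcl3 and Socs1 (r from 0.996 to 0.999), all highest after LPS, and its r with S100a8 was 0.302.

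The libraries labelled Zmynd8 cKO were then set against WT within each treatment. After IL-4, the library labelled Zmynd8 cKO exceeded WT past the 1.2-fold cutoff for 7 of the 10 genes, where 17.3% of all tested genes were higher. It was below WT for none of the 10 genes. Their median log2 difference was 0.40, beside 0.01 over all tested genes. No gene reached a fold of 2 on this scale.

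Fcnb had the highest ratio of CPM, 2.29 (limits 1.53 to 3.48), at 1.30 CPM in WT and 2.99 CPM in the library labelled Zmynd8 cKO. Elane followed with 1.68 (1.35 to 2.08), S100a9 with 1.52 (1.46 to 1.59) and S100a8 with 1.51 (1.41 to 1.62). Lcn2 was at 1.40 (1.28 to 1.53), Mpo at 1.26 (1.14 to 1.40) and Ngp at 1.23 (1.17 to 1.30). The remaining genes stayed under the cutoff: Camp at 1.18 (1.00 to 1.40), Ltf at 1.12 (1.06 to 1.19) and Cd177 at 1.04 (0.865 to 1.25). The ratios were thus not alike across the set, and the limits of S100a8 and S100a9 lay above those of Ngp and Ltf. By the deposited TPM, Mpo differed by 0.07 (log2) and was no longer past the cutoff.

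Other genes moved with this difference. After IL-4, 19 of 26 other neutrophil genes tested were higher than WT past the 1.2-fold cutoff in the library labelled Zmynd8 cKO and 1 was lower. Their median was 0.48 (log2), and 17.3% of all tested genes were higher and 13.4% lower. All 8 acute phase genes tested were higher, 6 of them by a fold of at least 2, where 1.56% of all genes were, with a median of 1.30. Il6 and Il12b, 2 of these 8, had under 10 counts in WT and entered only through the library labelled Zmynd8 cKO. The same holds for G0s2 of the neutrophil list, with 7 counts in WT and 20 in that library. Nothing is read from the calls of these genes. Hp is in both the neutrophil and the acute phase list. Of the 8 monocyte and myeloid progenitor genes, Ly6c2 and Ccr2 were the 2 that were higher (log2 differences of 0.91 and 1.30 on CPM + 1), none was lower, and the list median was 0.04. The macrophage list went both ways, with a median of 0.00. Cd14 (1.01) and Adgre1 (0.28) were higher, while Lyz2 (-0.77), Mertk (-0.39) and Csf1r (-0.29) were among those lower, and Lyz2 is the locus that carries Cre in the cKO mice. The 2 genes tested of the eosinophil, basophil and mast cell list parted, with Prg2 higher, at 0.951 and 2.56 CPM, and Siglecf lower, at 2.68 and 1.49 CPM. The 2 genes tested of the B cell list were higher (median 0.65), as were the 2 of the erythroid and megakaryocyte list (0.46). The 1 gene tested of the T cell list (-0.30) and of the stromal list (-0.38) was lower. Of 5 dendritic cell genes tested 2 were higher and 1 lower, with 1 of the 5 under 10 counts in WT. The part of these in the granule gene difference was not tested.

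After LPS, both genes with enough counts were lower in the library labelled Zmynd8 cKO, where 13.3% of all tested genes were lower. Lcn2 was at 161 CPM in WT and 118 CPM in the library labelled Zmynd8 cKO, a ratio of 0.737 (0.702 to 0.773). S100a8 was at 2.81 and 1.75 CPM, a ratio of 0.623 (0.413 to 0.928). Both lay on the other side of 1 from their IL-4 ratios. In NT, 3 genes had enough counts. S100a8 was the 1 gene higher, at a ratio of 1.41 (0.863 to 2.33), where 25.0% of all tested genes were higher, and Lcn2 the 1 gene lower, at 0.580 (0.254 to 1.25), where 29.0% were lower. S100a9 was at 1.07 (0.447 to 2.55). The limits of all 3 NT ratios include 1, so no difference was detectable at this depth.

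**Figure D3:**
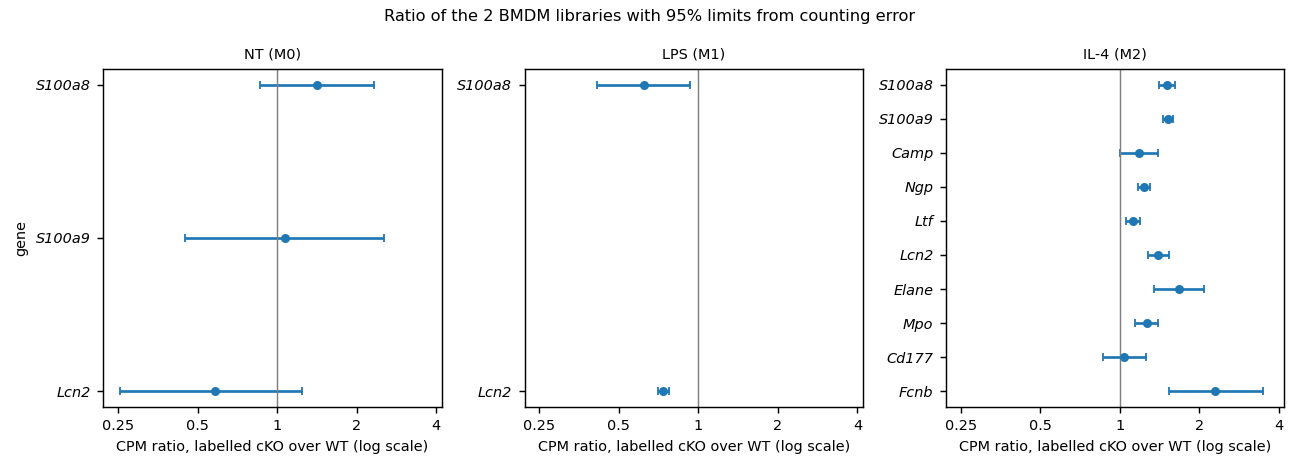
Ratio of CPM, library labelled Zmynd8 cKO over WT (horizontal axis, log scale), for the genes with enough counts in NT, LPS and IL-4 BMDMs; points are single library pairs and bars are 95% limits from counting error. After IL-4 all 10 points lie above 1, from 1.04 for Cd177 to 2.29 for Fcnb, whereas both LPS points lie below 1.

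In the Zmynd8 lines of Raw264.7 cells all 10 genes were well above the floor, with Fcnb the lowest at 283 to 509 reads and hence with the widest limits. The deposited values are reads over a factor particular to each library and table. Genes whose values averaged 1 or more were compared on log2(value + 1). The D/E-A and Zmynd8 KO comparisons share the rescue library. D/E-A was lower than the rescue for all 10 genes at the 1.2-fold cutoff, where 35.9% of all tested genes were lower. For 4 of them, Camp, S100a9, S100a8 and Elane, the fold was at least 2, where 11.4% of all genes were lower by that much. The median log2 difference of the 10 genes was -0.80, beside 0.02 over all tested genes.

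Camp had the lowest ratio, at a value of 17075 in the rescue and 5435 in D/E-A (0.318, limits 0.309 to 0.328). S100a9 was at 62864 and 21427 (0.341, 0.336 to 0.346), and S100a8 at 48699 and 17779 (0.365, 0.359 to 0.371). Elane was at 1998 and 932 (0.467, 0.431 to 0.505). These 4 were the genes lower by more than 2-fold, and they span the cytosolic, specific and azurophil groups. Lcn2 was at 58640 and 33080 (0.564, 0.557 to 0.572), Ltf at 17857 and 10384 (0.582, 0.568 to 0.596) and Fcnb at 471 and 290 (0.615, 0.529 to 0.714). Ngp was at 35498 and 23803 (0.671, 0.660 to 0.682), Cd177 at 1722 and 1193 (0.693, 0.643 to 0.746) and Mpo at 1871 and 1343 (0.718, 0.669 to 0.770). Genes of one granule thus had unlike ratios, with Elane below Mpo and Camp below Ngp.

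At the 1.2-fold cutoff Zmynd8 KO without rescue was lower than the rescue for 5 of the 10 genes and higher for none, where 36.5% of all tested genes were lower. S100a9 was at 67096 in the rescue and 41518 in Zmynd8 KO (ratio 0.619, limits 0.611 to 0.626), and S100a8 at 51978 and 32721 (0.630, 0.621 to 0.638). Camp was at 18225 and 11948 (0.656), Ltf at 19059 and 14144 (0.742) and Lcn2 at 62588 and 51713 (0.826). Lcn2 was just past the cutoff. Cd177, at 1838 and 1557 (0.847, 0.791 to 0.907), was just short of it. Ngp (0.944), Elane (0.955) and Fcnb (0.971) were nearer to the rescue, and Mpo was at 1997 and 2308 (1.16, 1.09 to 1.23). S100a8, S100a9 and Camp had the lowest ratios of the 10 in both comparisons, which share the rescue library.

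**Figure D4:**
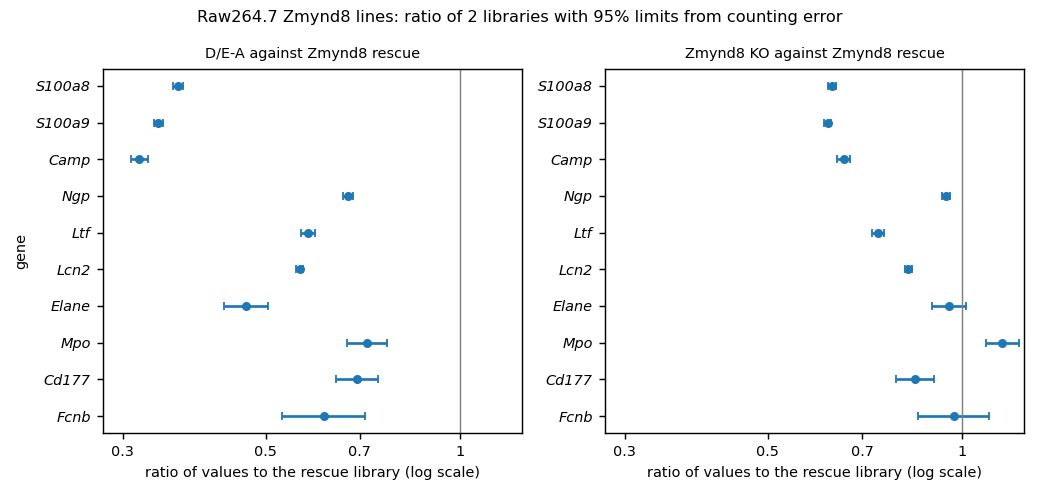
Ratio of the deposited values to the rescue library (horizontal axis, log scale) in D/E-A cells (left) and Zmynd8 KO cells (right) of the Raw264.7 line; points are single library pairs and bars are 95% limits from counting error. All 10 D/E-A points lie between 0.318 and 0.718, whereas the Zmynd8 KO points run from 0.619 for S100a9 to 1.16 for Mpo.

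The make-up of the set within a library does not depend on scaling. S100a8, S100a9 and Camp took 19.7%, 25.5% and 6.92% of the counts of the 10 genes in the rescue, 15.4%, 18.5% and 4.70% in D/E-A, and 16.8%, 21.4% and 6.15% in Zmynd8 KO. Ngp took 14.4%, 20.6% and 18.4% in the same order, and Lcn2 23.8%, 28.6% and 26.6%. Shares of the last pair were thus larger in D/E-A and Zmynd8 KO than in the rescue. Ngp had 2.08 times the counts of Camp in the rescue (2.04 to 2.12), 4.38 times in D/E-A (4.25 to 4.51) and 2.99 times in Zmynd8 KO (2.93 to 3.06). Elane had 1.07, 0.694 and 0.882 times the counts of Mpo. In BMDMs after IL-4, Ngp had 10.3 times the counts of Camp in WT and 10.8 times in the library labelled Zmynd8 cKO, and Elane had 0.200 and 0.265 times those of Mpo. Lcn2 took only 7.10% and 7.39% of the set there.

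**Figure D5:**
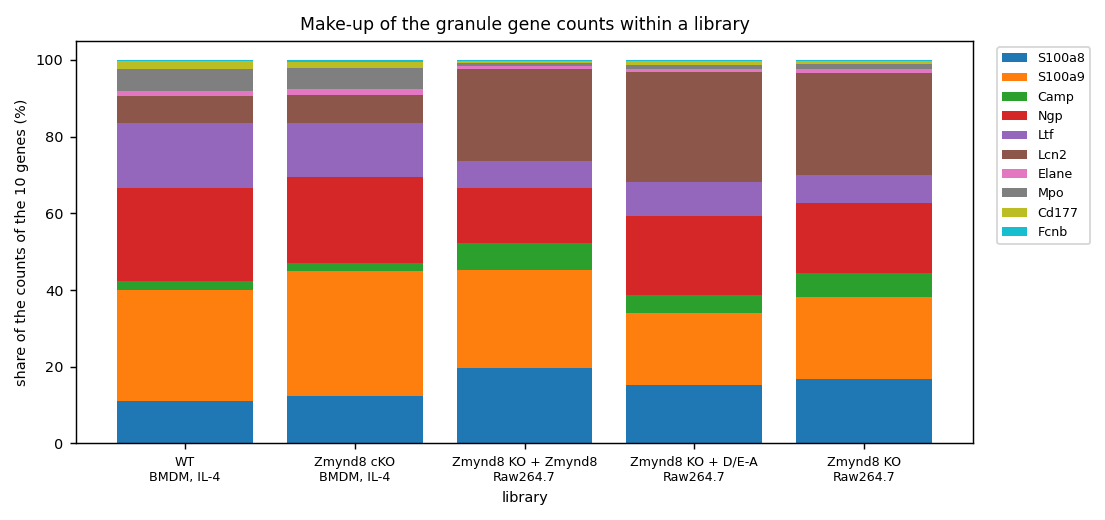
Share of each gene in the summed counts of the 10 genes (vertical axis, percent) within the 2 IL-4 BMDM libraries and the 3 Zmynd8 lines (bars). Lcn2 takes 7.10% to 7.39% in the IL-4 libraries and 23.8% to 28.6% in the Zmynd8 lines. Among the Zmynd8 lines Camp is lowest in D/E-A, at 4.70%, and it takes 2.35% and 2.07% in the IL-4 libraries.

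The rest of the neutrophil list summed to 4872 CPM in the rescue, 3640 CPM in D/E-A and 4387 CPM in Zmynd8 KO. In D/E-A, 24 of 31 tested genes were lower than the rescue and 5 were higher, with a median of -0.68 (log2), where 35.9% of all tested genes were lower and 36.7% higher. In Zmynd8 KO 15 of 33 were lower and 6 higher, with a median of -0.24, where 36.5% of all genes were lower and 33.8% higher, so the share of lower genes was near that of all genes. Ly6g was at values of 231 and 52.2 in the rescue and D/E-A, Retnlg at 1250 and 312, and Pglyrp1, a peptidoglycan recognition protein of granules, at 3033 and 820. Not all neutrophil genes were lower: Csf3r was at 7403 and 10057, Mmp25 at 686 and 1941, and Gfi1, a transcription factor of granulocyte differentiation, at 576 and 1447. Cebpe, the factor that governs specific granule genes, was at 748 in the rescue and 303 in D/E-A, and at 799 and 526 in the table of Zmynd8 KO.

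Markers of other cells were present in these libraries too. The eosinophil, basophil and mast cell list summed to 245 CPM in the rescue, 95.5 CPM in D/E-A and 178 CPM in Zmynd8 KO, with Prg2, the eosinophil granule major basic protein, at 184, 62.7 and 123 CPM. Prg2 thus made up most of each sum. In D/E-A 6 of 8 tested genes of the list were lower than the rescue and 2 higher, and in Zmynd8 KO 2 of 9 were lower and 2 higher, with a median of 0.23 (log2) that goes against the fall of the sum. The list summed to between 0.180 and 0.638 CPM in the p65 libraries. The B cell list, which includes Igkc at up to 105 CPM, summed to 469, 492 and 372 CPM. In the p65 libraries it summed to between 148 and 186 CPM, with Igkc at 0 to 0.198 CPM. The dendritic cell list summed to 176, 102 and 151 CPM, and to between 30.9 and 42.7 CPM in the p65 libraries. In D/E-A 5 of its 6 tested genes were lower than the rescue and 1 higher, and in Zmynd8 KO 2 of 7 were lower and 3 higher. The T cell list summed to 13.4, 11.8 and 10.2 CPM. In D/E-A 2 of its 5 genes were lower and 0 higher, and in Zmynd8 KO 4 were lower and 1 higher. The macrophage list summed to 6669 CPM in the rescue, 10883 CPM in D/E-A and 8099 CPM in Zmynd8 KO. In D/E-A 8 of its 12 genes were higher than the rescue and 2 lower, and in Zmynd8 KO 9 were higher and 1 lower, where 36.7% and 33.8% of all genes were higher and 35.9% and 36.5% lower. Adgre1 was at values of 6043 and 16256 and Lyz2 at 37833 and 91611 in the rescue and D/E-A, whereas C1qa, at 11154 and 7464, and Cd63, at 5944 and 3366, were lower in D/E-A. The erythroid and megakaryocyte list summed to 233, 155 and 199 CPM in the 3 lines, and to between 1.12 and 2.17 CPM in the p65 libraries. In D/E-A 5 of its 6 tested genes were lower and 0 higher, and in Zmynd8 KO 4 of 7 were lower and 2 higher. The monocyte and myeloid progenitor list summed to 828, 701 and 891 CPM, and to between 12.8 and 16.0 CPM in the p65 libraries. Of its 8 genes 5 were higher and 2 lower in D/E-A, and 4 higher and 0 lower in Zmynd8 KO. The part of these in the granule gene differences was not tested.

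In the p65 libraries Lcn2 was the 1 gene of the set above the floor of 3 reads. It had 188 reads with WT p65, 232 with K122R and 102 in p65 KO. K122R was higher than WT p65 (value 236 against 184, ratio 1.28, limits 1.05 to 1.56), where 30.8% of all tested genes were higher and 32.5% lower. Scaled by table totals the log2 difference fell from 0.36 to 0.21 and was no longer past the cutoff. In p65 KO it was lower (104 against 185, ratio 0.561, 0.437 to 0.718), where 26.3% of all genes were higher and 25.7% lower. These comparisons share the WT p65 library. S100a8 had 1, 2 and 1 reads with WT p65, K122R and p65 KO, and Camp had 2, 1 and 3 reads. Ltf had 2, 0 and 0 reads, and Cd177 0 reads with WT p65 and 2 in p65 KO. The granule genes other than Lcn2 were therefore not detectable beyond the floor in these 3 libraries, although the acute phase list summed to between 3458 and 4719 CPM in them, most of it Ptgs2.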

How the data were processed

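RNA-seq libraries were made from polyadenylated RNA, and the authors aligned the BMDM reads with TopHat to the mm10 transcriptome. For BMDMs the authors deposited estimated counts and TPM per gene, and the estimated counts were rounded to whole counts here and divided by the library total (CPM). For Raw264.7 cells the deposited tables hold 1 signal value per gene and library, which is a whole number of reads (tolerance 0.01) divided by a size factor for 99.9958% to 100% of values, and those reads were recovered. The D/E-A table lists only genes with 21 or more reads in the rescue library, so the rescue reads were taken from the Zmynd8 KO table. Raw264.7 differences were taken within 1 table only. Genes were compared on log2 with a pseudocount of 1, where their mean was 10 counts or more in BMDMs and a value of 1 or more in Raw264.7 cells, and called at a fold of at least 1.2. With 1 library per condition no test between conditions was run, and edgeR was not used. Limits are 95% Clopper-Pearson limits for ratios and exact Poisson limits for TPM (scipy 1.17.1). The deposited fold changes and p-values, 2 unlabelled columns of per-sample values and 35 samples that are not RNA-seq were not analysed here. Entries without a gene (431, 431 and 2 in the NT, LPS and IL-4 tables) held no counts. The 10 genes, the gene lists and the motifs were chosen with earlier results of these data known. Named genes are the 10, the genes of the lists, and for S100a8, Camp and Lcn2 the 5 genes of highest r among those averaging 100 counts or more and spanning 1 or more on the log2 scale, of which 1, and 1 gene each of the B cell and macrophage lists, are not reported here by name. Itgam has 2 entries in the BMDM tables, which were summed in the level of the macrophage list and kept apart in its median. The code was tested on simulated data. Alternatives were median ratio scaling, TPM, scaling by table totals, a pseudocount of 0.1, no filter and a fold of at least 2.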

Additional observations from a re-analysis of the deposited data

Results flagged for a closer look

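The difference between the library labelled Zmynd8 cKO and WT took opposite signs between treatments for S100a8 and Lcn2, each side past the 1.2-fold cutoff. Only S100a8, S100a9 and Lcn2 of the 10 genes had enough counts in more than 1 treatment. For S100a8 it was 0.30 (log2 of CPM + 1) in NT, -0.47 after LPS and 0.59 after IL-4, so that LPS and NT parted by -0.77 and IL-4 and LPS by 1.06. For Lcn2 it was -0.31 in NT, -0.44 after LPS and 0.47 after IL-4, so that IL-4 parted from NT by 0.78 and from LPS by 0.91. These differences between treatments were not tested, since each condition has 1 library. The NT values rest on 32 and 39 counts of S100a8 and 22 and 11 counts of Lcn2, their limits include no difference, and by the deposited TPM the NT value of S100a8 was 0.20, under the cutoff.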

How the results depend on the processing

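No paired analysis was possible because each condition has 1 library, and for the same reason no library could be left out. No gene past the cutoff turned its direction under any alternative run. The counts of genes past the cutoff stayed within 1.5 times under a pseudocount of 0.1 and under scaling by table totals in every comparison where these were run, but scaling by table totals took Lcn2 in K122R under the cutoff (0.21 in place of 0.36 on the log2 scale), which left S100a8 and Camp at 1 or 2 reads as the 2 genes past it, and took Cd177 in Zmynd8 KO past it (-0.31 in place of -0.24). At a fold of at least 2 the counts fell to 0 of the 10 genes for the libraries labelled Zmynd8 cKO against WT in NT (from 2), LPS (from 2) and IL-4 (from 7), to 0 for Zmynd8 KO against the rescue (from 5) and for K122R against WT p65 (from 3), to 1 for LPS against NT in WT (from 2) and for p65 KO against WT p65 (from 3), and to 4 for D/E-A (from 10). With TPM the NT comparison of the library labelled Zmynd8 cKO with WT gave 1 gene in place of 2. LPS against NT in the pair labelled Zmynd8 cKO gave 1 gene, but 2 with median ratio scaling, 2 with TPM and 4 with no filter on low counts, the added genes having from 0 to 41 counts in a library. An exact binomial test on the recovered reads, chosen after seeing the data and adjusted over all genes, kept the 1.2-fold cutoff and compares 2 libraries, not conditions. It called 7900 genes for D/E-A, 7035 for Zmynd8 KO, 5352 for K122R and 2706 for p65 KO, which is 61.9%, 33%, 27.2% and 13.6% of those tested, among them 10, 5, 1 and 1 of the 10 genes. The 10 genes were chosen on these libraries, so nothing is read from their calls. The 1 gene that this test called in each p65 comparison was Lcn2. At a fold of at least 2, without the test, the 1 gene left for p65 KO was Cd177, at 0 and 2 reads. Depth limits the NT and LPS values, where genes other than Lcn2 had at most 70 counts.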
